A study of Paulownia elongata with 6 samples.

Results

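The 200 longest coding models of Paulownia elongata, a fast-growing tree, were described in leaf RNA from heated and unheated plants. A coding model is a predicted protein-coding sequence known only by its identifier. The members were taken from 43380 models by coding length alone, with ties settled by name, and no expression value entered the choice. The 6 sequencing libraries came from leaves labelled as 3 years old and as grown for 14 days in a potting soil with mycorrhizae. Heat libraries 1 to 3 were made after 24 hours at 40 °C under 12 hours of light and 12 of dark, and control libraries 1 to 3 came from plants at 25 °C. Paired reads of 76 bases came from a MiSeq, a benchtop sequencing instrument. No label states that the libraries of 1 group are separate plants, so the p-values rest on the spread between libraries, which may be technical. The files pair no identifier with a gene name, so leaf markers could not be checked, no member can be given a function or a place in the genome, and its sequence was not used here.

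Coding length sets the size of the protein, and in plants the longest coding sequences include those of callose synthases, ABC transporters, motor proteins and chromatin remodellers. Which of these, if any, are among the members is not known here. Sequencing fragments are drawn along the whole transcript, so at equal numbers of molecules a long transcript yields more reads than a short one. TPM, a level per effective length scaled within a library, removes this factor. In leaves, heat is known above all for the induction of chaperones, the heat shock proteins, under heat shock factors. In bulk leaf RNA, fewer cells of a type and less RNA per cell cannot be told apart.

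The members ran from 2868 to 6456 coding bases with a median of 3288, or 1096 codons, against a median of 369 bases over all models. All 200 lengths were multiples of 3. Together they held 702714 of 24387434 coding bases, or 2.88%. There were 7 members over 5000 bases and 36 over 4000. The longest were TR27126|c0_g1_i1|m.52697 with 6456 bases, TR23185|c0_g1_i1|m.45740 with 6309 and TR1395|c0_g1_i1|m.2729 with 5973. At the short end the last members were TR1385|c0_g1_i1|m.2652 with 2871 bases and TR17125|c0_g2_i1|m.34084 with 2868. The first models outside were TR33111|c0_g1_i1|m.65433, also with 2868 bases and placed after by name, and TR65202|c0_g1_i1|m.124511 with 2865. By the identifiers 1 gene contributed a pair of members and every other gene 1 member, and 172 members were the sole model of their gene.

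The libraries held 3570524, 2425787 and 2487845 estimated reads in heat 1 to 3, and 1337663, 730315 and 2153266 in controls 1 to 3. The fragment length used by Salmon, the quantifier, was 158.9 to 165.9 bases in heat 1, heat 3 and control 3, and 132.7 to 140.6 bases in heat 2 and controls 1 and 2. Controls 1 and 2 stand apart from the other libraries, and 32.6% and 33.3% of all models were listed at 0 reads there, against 2.72% to 7.60% in the other libraries. What sets them apart was not tested and cannot be told from the files, and much of what follows rests on them. The calls, the median difference and the differences of several named members are therefore also given without them.

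The longest models took a larger part of the reads in every heat library than in any control. Their share of estimated reads was 1.30%, 2.10% and 1.80% in heat 1 to 3, and 0.630%, 0.673% and 1.14% in controls 1 to 3. Exact 95% Clopper-Pearson intervals, for counting error alone, ran from 2.09% to 2.12% in heat 2 and from 0.654% to 0.692% in control 2. The mean share was 1.73% ± 0.403 in heat and 0.813% ± 0.280 in controls (SD, n = 3 per group), a ratio of 2.13, given as a description without a test. Heat 1 at 1.30% and control 3 at 1.14% were the neighbours across the groups, and control 3 lay farther from controls 1 and 2 than from heat 1. Within the libraries with long fragments the shares were 1.30% and 1.80% in heat 1 and 3 against 1.14% in control 3. Within those with short fragments they were 2.10% in heat 2 against 0.630% and 0.673% in controls 1 and 2. Heat was higher in both classes. The part of depth and fragment length in the difference was not tested beyond these within-class values.

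**Figure D1:**
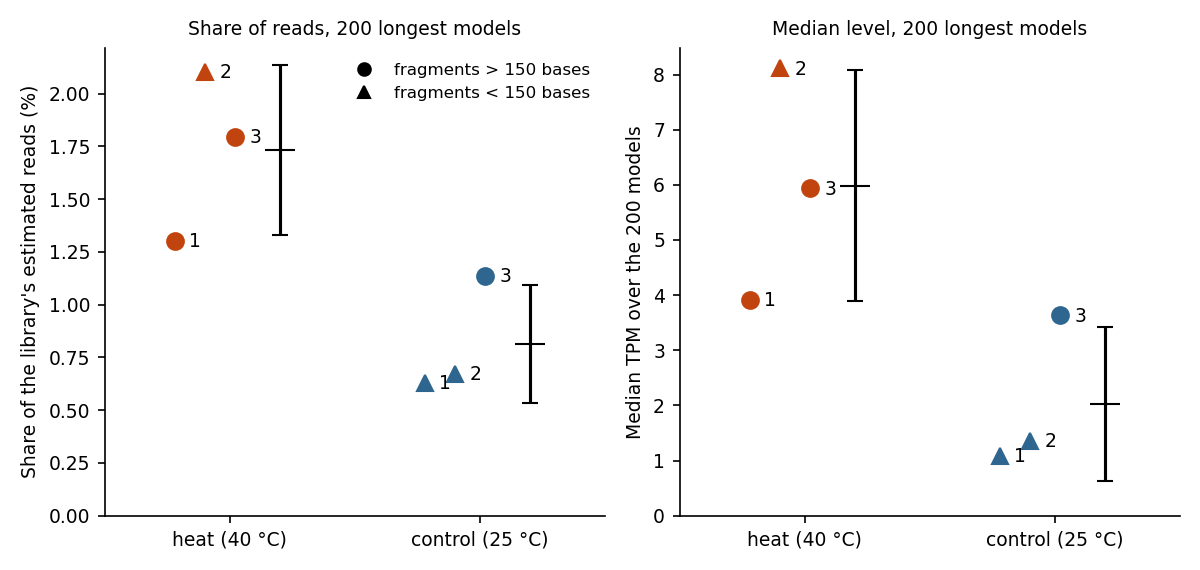
Each point is a library, with its replicate number beside it, as the share of its estimated reads taken by the 200 longest models (left, in %) and as the median TPM over these models (right); circles mark long and triangles short fragments, and the bars give the mean ± SD of 3 libraries. All 3 heat libraries sit at or above 1.30% and all 3 controls at or below 1.14%.

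The share was spread over many members. It took 49 of them to reach 50% of all member reads, and the most abundant member held 5.05% of them. Without the 4 most abundant members the difference of mean shares was 0.766 percentage points, against 0.921 with them. The median reads per member were 170, 196 and 156 in heat 1 to 3, and 23.5, 14.0 and 96.1 in controls 1 to 3. On the TPM scale the median member stood at 3.91, 8.11 and 5.93 in heat and at 1.08, 1.36 and 3.63 in controls. The median over all 43380 models was 5.71, 8.22 and 6.61 TPM in heat and 1.62, 2.18 and 5.60 TPM in controls. The median member therefore lay below the median model in every library. There were 23 members that had a mean above 10 TPM over the 6 libraries, or 11.5% beside 34.2% of all models, and none had a mean below 1 TPM.

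Few members went undetected in any library. All 200 members had at least 1 estimated read in heat 1 to 3, while 10, 9 and 1 had less than 1 in controls 1 to 3. Of these, 9 were listed at exactly 0 in control 1 and 8 in control 2, and the others were isoforms of TR35934|c0_g1. The members at exactly 0 were 4.5% and 4.0% of all members, against 32.6% and 33.3% of all models in the same libraries. Of the 200 models next in length 8% and 5% were at 0 there, so a low share was not particular to the members. A count of 0 allows up to 3 reads, which is 2.52 CPM in control 1 and 4.76 CPM in control 2. With every library's rounded counts thinned to 730265 reads, a mean of 0.2, 0.0 and 0.6 members were at 0 in heat 1 to 3, and 17.0, 9.0 and 1.3 in controls 1 to 3. At that depth 17.2%, 14.1% and 18.2% of all models were at 0 in heat 1 to 3. In controls 1 to 3 they were 39.5%, 33.5% and 19.5%. Fewer than 10 reads were found for 60 members in control 1 and 72 in control 2, against at most 4 in any other library. These low counts limit the precision of each member's control level.

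All 200 members passed the expression filter, as did 55.3% of all models, and 120 members had 10 or more reads in all 6 libraries. In the edgeR quasi-likelihood test over all 23984 tested models, 0 members were higher and 0 lower at an adjusted p of 0.05, where 0.00417% of all tested models were higher and 0.0% lower. The smallest adjusted p among the members was 0.0755, shared by 11 of them. At an unadjusted p under 0.05, 76 members were higher in heat and 1 was lower. Over all tested models 13.6% were higher and 16.2% lower by that rule, and the members' 76 and 1 are 38.0% and 0.5%. At an adjusted p under 0.10 the count was 38 members higher and 0 lower, beside 6.17% and 8.51% of all tested models. Other tools gave other numbers past an adjusted p of 0.05. edgeR's exact test called 41 members higher and 0 lower, with 9.39% and 9.81% of all tested models. DESeq2, which gave an adjusted p to 198 members, called 51 higher and 0 lower, with 7.19% and 7.1%. limma-voom called 0 and 0, with 0.0% and 0.0%, and at an unadjusted p under 0.05 it had 87 higher and 1 lower, with 18.7% and 13.4%. Leaving out control 3 gave 133 members higher and 2 lower in the quasi-likelihood test, where 34.4% and 21.4% of all tested models passed. That fit keeps controls 1 and 2 alone. Leaving out controls 1 and 2 instead gave 4 higher and 1 lower, with 0.555% and 1.17%, a fit in which control 3, left alone, is taken to vary as heat does. With fragment length in bases as a covariate 22 members were higher and 0 lower, with 1.82% and 1.28% of all tested models, and with its class as a covariate 1 and 0, with 0.0542% and 0.025%.

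The fitted differences of the members lay mostly above 0. The estimate was above 0 for 176 members and below 0 for 24, while over all tested models 51.9% and 48.1% were. The median log2 fold change was 0.94, a ratio of 1.92, with quartiles of 0.40 and 1.76, and the median over all tested models was 0.08 with quartiles of -0.92 and 1.11. The members ran from -1.24 to 5.01, all tested models from -8.91 to 9.37. The estimate was 4-fold or more higher for 43 members and 4-fold or more lower for 0, against 10.4% and 8.73% of all tested models. The members' median was 1.86 without control 3 and 0.56 without controls 1 and 2, when the medians over all tested models were 0.57 and 0.09.

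**Figure D2:**
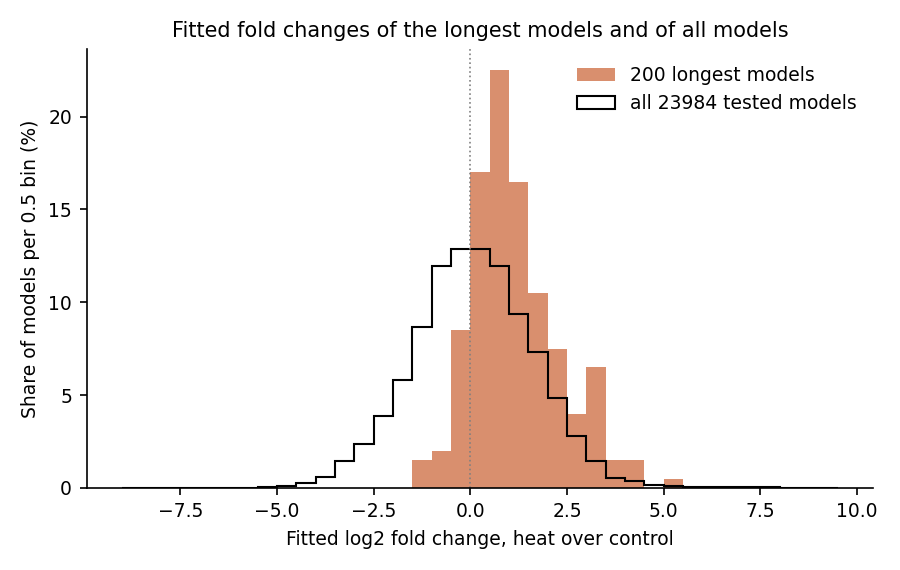
The filled bars give the share of the 200 longest models, and the outline that of all 23984 tested models, in bins of the fitted log2 fold change (heat over control, x axis). The members centre on 0.94 and none lies below -1.24, while all tested models centre on 0.08.

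In 107 members every heat library exceeded every control, and in 0 every heat library was below every control, where 22.6% and 16.7% of all tested models showed these patterns. The lowest heat value was at least 4-fold above the highest control on the log2 CPM scale for 10 members, or 5.0% beside 1.34% of all tested models. Control 3 was below every heat library for 130 members, within the heat range for 54 and above every heat library for 16. Heat 2 was the highest library of the 6 for 83 members and heat 3 for 73. The lowest was control 1 for 107 members and control 2 for 52. No share over all tested models is given for these counts or for those of control 3, so they describe the members alone. The spread between libraries was larger in controls, with a median SD of log2 CPM of 0.31 in heat and 0.86 in controls. Over all tested models these were 0.39 and 0.95.

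The controls differed among themselves by more than heat differed from control 3. The median member was 0.56 higher in the mean of the heat libraries than in control 3 on the log2 CPM scale, and 157 of 200 were higher. Each heat library alone gave 0.28, 0.68 and 0.66 above control 3. The mean of controls 1 and 2 was 1.27 below control 3 at the median member, with 159 members lower. Over all tested models the median of heat minus control 3 was -0.02, and that of controls 1 and 2 minus control 3 was -0.42. The heat mean was above control 3 for 49.1% of all tested models. The mean of controls 1 and 2 was above control 3 for 42.0% of them, and for 41 of the 200 members. Both controls were below all 4 other libraries for 139 members, or 69.5% beside 36.9% of all tested models.

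In comparisons that share no library, most members lay on the same side. Heat 1 and 3 against control 3 put 151 members higher and 49 lower, where 49.6% and 50.4% of all tested models were. The median log2 difference was 0.49 for the members and -0.01 for all tested models. Heat 2 against controls 1 and 2 put 184 members higher and 16 lower, where 54.5% and 45.4% of all tested models were, with medians of 1.72 and 0.25. In both comparisons 141 members were higher and 6 lower, against 35.1% and 30.9% of all tested models. Most members were higher in each comparison alone, so a high count in both can arise without agreement member by member. Exchanging heat 2 for heat 1 gave 142 members higher in both, beside 34.9% of all tested models, and exchanging it for heat 3 gave 134, beside 32.5%. A difference of 4-fold or more in both was found for 16 higher and 0 lower members, against 2.99% and 1.15%. This division follows fragment length and was known from earlier results of these data.

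**Figure D3:**
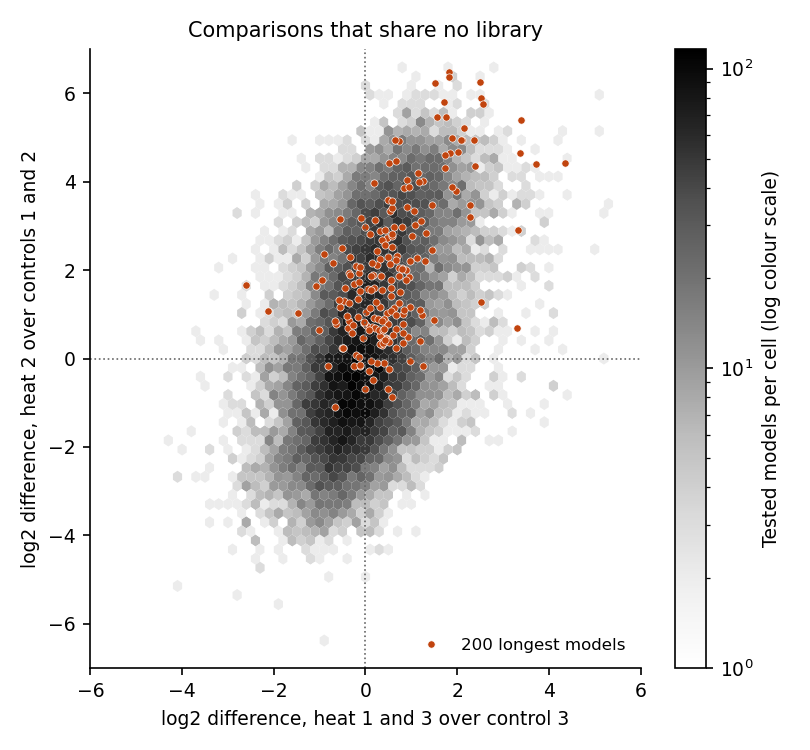
Each orange point is 1 of the 200 longest models and the grey cells hold all tested models (log colour scale). The x axis is the log2 difference of heat 1 and 3 over control 3, the y axis that of heat 2 over controls 1 and 2; 141 points are above 0 on both axes and 6 below 0 on both.

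The members stood at the end of a gradient over classes of length, which was not even at every step. The other tested models were put in 10 classes of about equal size by length. The shortest class, with a median of 207 bases, had a median log2 fold change of -1.26. The middle classes, with medians of 513 and 642 bases, had 0.14 and 0.11, and the longest class, with a median of 1767 bases, had 0.60. The members followed with 0.94. The values also increased within the long-fragment libraries, with -0.33 in the shortest class, 0.18 in the longest and 0.49 in the members. Within the short-fragment libraries it was -1.43, 1.09 and 1.72. The 200 models next in length, from 2868 down to 2481 bases, had a median of 0.81, and 45.5% of them were higher in every heat library, against 53.5% of the members. The difference between these neighbouring classes was not tested. The shortest 23380 models, of at most 399 bases, took 23.5%, 21.9% and 20.1% of reads in heat 1 to 3 and 38.4%, 34.9% and 23.4% in controls 1 to 3.

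**Figure D4:**
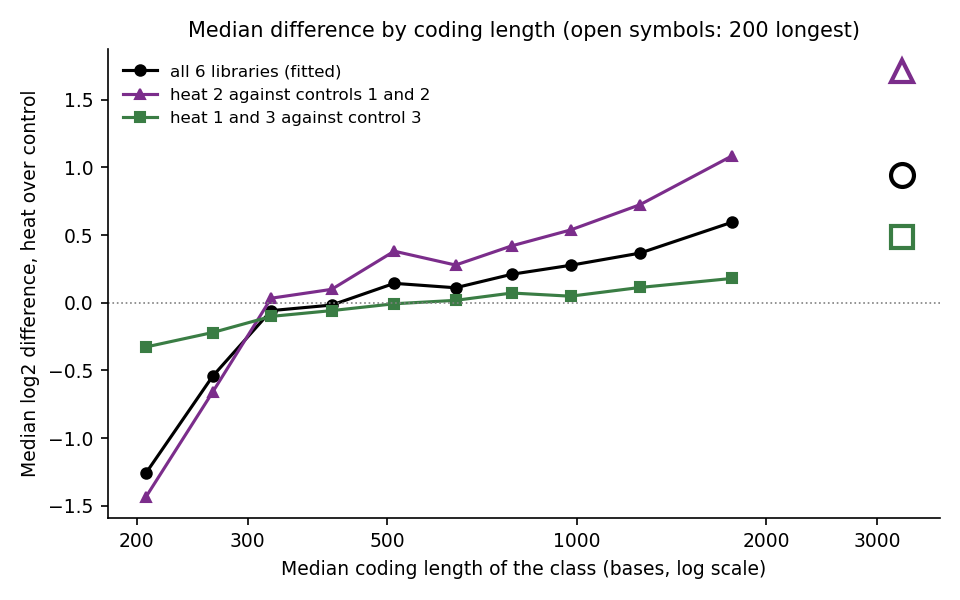
Median log2 difference (heat over control, y axis) against the median coding length of each class (x axis, log scale), for 10 equal classes of the other tested models by length (joined, filled) and for the 200 longest models (open). Black shows the fit over all 6 libraries, purple heat 2 against controls 1 and 2, and green heat 1 and 3 against control 3; the members stand at 0.94, 1.72 and 0.49.

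Among the members themselves the difference also varied with level and, in uneven steps, with length. The 50 longest, of 3852 bases or more, had a median log2 fold change of 1.27, and 31 of them were higher in every heat library. The 50 shortest, of 3039 bases or fewer, had 0.70 and 19. By mean TPM over the 6 libraries, the 50 most abundant had a median of 0.70 and 17 without overlap. The 50 least abundant, at 3.13 TPM or below, had 1.83 and 37. Over all tested models 22.6% were higher in every heat library. These values are descriptions of blocks of members, which share the same 6 libraries.

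The 3 longest models differed in how steady their control levels were. TR27126 had 93.9, 126 and 89.1 CPM in heat 1 to 3, and 79.8, 60.2 and 68.4 CPM in controls 1 to 3. Its groups did not overlap, and its log2 fold change was 0.57 ± 0.40 (SE, adjusted p = 0.352, edgeR quasi-likelihood test). TR23185 had 138, 191 and 267 CPM in heat, and 114, 109 and 109 CPM in controls. All heat values lay above the controls, which were nearly equal, and the fitted log2 fold change was 0.84 ± 0.44 (SE, adjusted p = 0.233, same test). TR1395 had 197, 244 and 206 CPM in heat, and 13.4, 52.3 and 214 CPM in controls. Control 3 stood within the heat range and the other controls far below it. Its log2 fold change of 1.20 had a standard error of 0.85 (adjusted p = 0.360, same test), and it was -0.019 without controls 1 and 2 and 2.93 without control 3.

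The 4 most abundant members by mean TPM did not include the longest. TR69021|c0_g1_i1|m.133080, of 3114 bases, had 77.8, 73.8 and 150 TPM in heat 1 to 3, and 3.37, 12.8 and 38.1 TPM in controls 1 to 3. Its mean of 59.4 TPM over all libraries was above that of 93.9% of all models. The heat libraries were all higher and the controls spread widely, and the fitted log2 fold change was 2.14 ± 0.82 (SE, adjusted p = 0.133, edgeR quasi-likelihood test). It was 3.17 without control 3 and 1.18 without controls 1 and 2. TR44366|c0_g1_i2|m.87466, of 3006 bases, had 32.6, 64.4 and 58.4 TPM in heat and 14.9, 25.8 and 4.21 TPM in controls. Here control 3 was the lowest library by far, and the TMM-scaled values of the groups overlapped, with 367 CPM in heat 1 and 371 CPM in control 2.

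TR15075|c0_g3_i1|m.29663, of 2991 bases, had 20.4, 48.5 and 39.2 TPM in heat and 11.6, 14.1 and 22.6 TPM in controls. Heat 1 lay below control 3, so the groups overlapped. TR39198|c0_g1_i2|m.77690, of 3327 bases, had 29.9, 60.4 and 39.3 TPM in heat and 1.47, 3.09 and 8.49 TPM in controls. All heat values lay well above the highest control. Its log2 fold change was 2.86 ± 0.63 (SE, adjusted p = 0.0755, edgeR quasi-likelihood test), and 2.04 without controls 1 and 2.

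The members with the smallest p and no overlap between groups were both on the higher side, and no member met the rule on the lower side. TR22874|c0_g1_i1|m.44901, of 3153 bases, had 372, 379 and 379 reads in heat 1 to 3 and 4.0, 4.01 and 27.0 in controls 1 to 3. In CPM this was 113, 129 and 162 in heat and 3.36, 6.34 and 12.7 in controls, or 135 ± 24.9 and 7.48 ± 4.79 (SD, n = 3 per group). With the pooled reads of each group divided by its summed TMM-scaled library totals, the ratio was 14.9. It lay between 10.6 and 21.5 by counting error alone (exact 95% interval). The fitted log2 fold change was 4.11 ± 0.58 (SE, adjusted p = 0.0755, edgeR quasi-likelihood test). It was 3.37 among the long-fragment and 4.66 among the short-fragment libraries.

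TR67454|c0_g1_i2|m.129979, of 2943 bases, had 135, 226 and 142 reads in heat and 8.03, 4.09 and 20.6 in controls. In CPM it stood at 41.2, 77.0 and 60.8 in heat and 6.72, 6.34 and 9.90 in controls, with a wide gap between the groups. The ratio of pooled reads, divided by the TMM-scaled totals in the same way, was 7.03. It lay between 4.94 and 10.3 by counting error alone (exact 95% interval). The fitted log2 fold change was 2.92 ± 0.48 (SE, adjusted p = 0.0755, edgeR quasi-likelihood test), at 2.28 in the long-fragment and 3.47 in the short-fragment libraries.

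The single member lower at an unadjusted p under 0.05, picked with its values known, was TR60495|c0_g1_i1|m.116282 of 3039 bases. Its level was 46.7, 71.5 and 41.1 CPM in heat 1 to 3 and 163, 146 and 69.3 CPM in controls 1 to 3. Control 3 lay just under heat 2, so the groups overlapped. The fitted log2 fold change was -1.24 ± 0.49 (SE, adjusted p = 0.137, edgeR quasi-likelihood test), and it was -0.42 without controls 1 and 2.

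The steadiest members were TR13049|c0_g1_i1|m.25842, of 3273 bases, and TR9939|c0_g1_i1|m.19213, of 3114 bases. TR13049 had 102, 89.6 and 122 CPM in heat and 102, 111 and 78.7 CPM in controls. TR9939 had 67.7, 99.1 and 78.8 CPM in heat and 101, 93.5 and 81.1 CPM in controls. In both the groups overlapped throughout, with an SD of log2 CPM of 0.22 over the 6 libraries. They were chosen for that small spread, so it is a description. Their levels in controls 1 and 2 were as high as in control 3, unlike those of the median member.

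**Figure D5:**
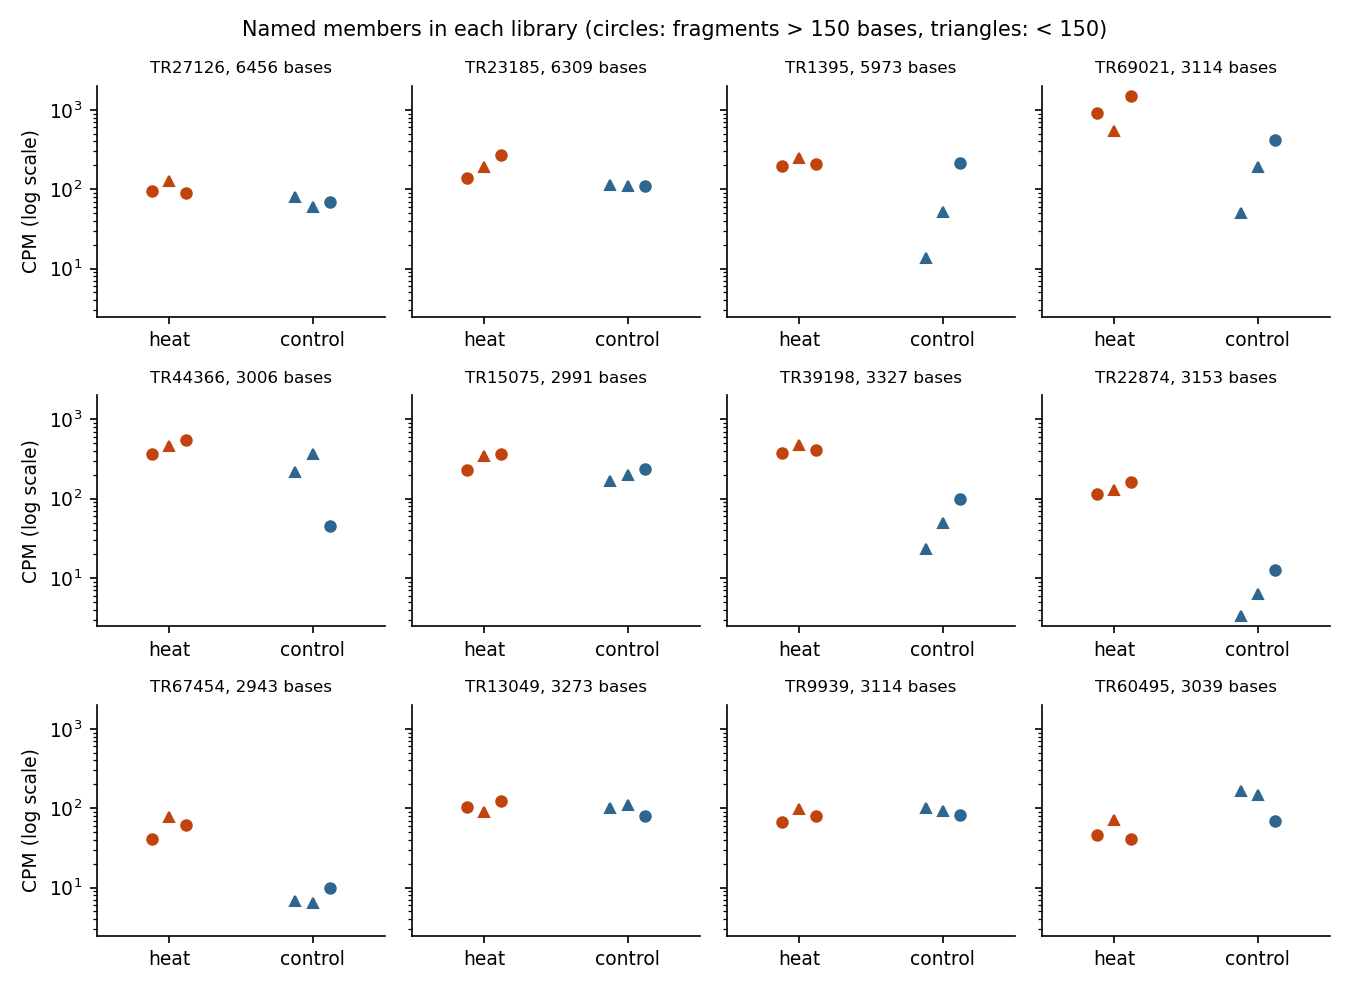
CPM (log scale) of 12 named members in each library, heat on the left and control on the right of each panel; circles mark libraries with long and triangles those with short fragments. TR22874 and TR67454 show the widest gaps, TR13049 and TR9939 lie level, and in TR1395 control 3 stands with the heat libraries.

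Only TR35934|c0_g1 contributed a pair of members, isoforms 3 and 2, of 3888 and 3855 bases. Isoform 3 had 77.2, 59.2 and 1.28 reads in heat 1 to 3 and 0.137, 57.0 and 19.6 in controls 1 to 3. Isoform 2 had 4.48, 159 and 30.7 reads in heat and 131, 0.0432 and 1e-06 in controls. Isoform 3 held 94.5%, 27.2% and 4.02% of the pair's reads in heat and 0.104%, 99.9% and 100% in controls, so the division did not follow temperature. Reads common to both isoforms are divided by Salmon's estimate. The pair summed gave 24.7, 74.3 and 13.7 CPM in heat and 110, 90.4 and 9.43 CPM in controls, with overlapping groups.

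Some members shared their transcript with 1 or more shorter coding models, as their component, gene and isoform numbers were the same. There were 19 such members with 21 shorter models, of 180 to 1047 bases and a median of 234. Summed over all 21, the shorter models held 8.16%, 8.01% and 8.96% of the reads of these transcripts in heat 1 to 3. In controls 1 to 3 they held 31.1%, 27.0% and 12.0%. By the identifiers a member and its shorter models lie on 1 assembled transcript. The summed proportion of the shorter models was higher in each control than in any heat library. The most read of the shorter models, of 204 bases, lay beside TR67436|c0_g1_i1|m.129821 and was picked with its values known. Its reads were 18.7, 28.6 and 18.9 in heat and 203, 84.0 and 22.0 in controls, when the member itself had 212, 274 and 175 in heat and 67.0, 43.0 and 83.4 in controls. Without this pair the shares were 8.16%, 7.90% and 8.91% in heat and 19.5%, 14.9% and 11.5% in controls. The share was lower in every heat library than in every control for 8 of the 21 pairs, higher for 5 and overlapping for 8. Among the pairs counted as higher, the shorter models beside TR10210, TR48867, TR87 and TR30266 had 0 reads in controls 1 and 2. The pair of TR60502 had no reads of either model in those controls and was counted as overlapping. Several of these shorter models had few reads. No share over the pairs of other models is given, so these counts and sums describe the members alone.

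The authors' deposited table, from their own edgeR exact test over 43380 models, lists 35 members as higher and 0 as lower in heat at an FDR under 0.05. Of all models there, 5.06% are higher and 3.43% lower, after its sign, which is coded as control over heat, was reversed. The FDR listed for named members in the authors' deposited table is 0.00610 for TR39198, 6.97e-05 for TR22874 and 0.00378 for TR67454. It rests on the same 6 libraries and is no independent evidence.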

How the data were processed

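Total leaf RNA was made into barcoded TruSeq libraries for MiSeq, per the labels' protocols, with 3 heat and 3 control libraries. The authors quantified each with Salmon and tested the groups with edgeR, per the submitters' processing notes; versions and the transcript reference: not given in the sources used here. The deposited per-library files give estimated counts, TPM and lengths for 43380 models, per the file headers. The authors' deposited table holds, per model, log2 values (fold change and mean CPM) and p-values (raw, and adjusted as FDR); its fold changes correlated with those of the counts at r = -0.918 across models, so its sign was reversed.

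Estimated counts were rounded to whole numbers; edgeR 4.0.16 under R 4.3.3 gave the test. A model passed the filter with a depth-scaled count of 10 in 3 libraries and 15 reads in total. TMM scaling and a robust quasi-likelihood test on group alone followed, with Benjamini-Hochberg adjustment over all 23984 tested models at 0.05. The procedure was tested on simulated counts with known fold changes. That simulation gave every library the same dispersion and set no control apart, so it does not cover the spread of these controls. Standard errors were derived from the F statistic. CPM used TMM-scaled totals, and log2 CPM a prior count of 1. Alternatives were other scalings, filters and tests (DESeq2 1.42.0, limma 3.58.1), a replicate block, fragment length as a covariate, effective length offsets, other cutoffs for the longest models, and libraries left out. Fragment length was read as the median difference between length and effective length in models over 1000 bases, and classes were split at 150 bases. Depth was 730315 to 3570524 estimated reads per library. The members and lists were chosen with earlier results of these data known. Beyond members named by length (the 3 longest, and those at the cutoff), the 4 with the highest mean TPM were named, up to 2 on each side with the smallest p, no overlap and a mean of at least 20 reads in the higher group, the 2 with the smallest spread and at least 20 reads in every library, and the gene with most members. The replicate numbers did not pair the libraries: no label states a pairing, and deviations of same-numbered libraries correlated at 0.01, 0.18 and 0.35.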

Additional observations from a re-analysis of the deposited data

How the results depend on the processing

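The count of 0 members higher and 0 lower at an adjusted p of 0.05 came out the same with DESeq2 size factors, no filter, library totals, limma-voom, a minimum total of 60 reads, the effective length offset and the cutoffs of 100 or 400 longest models. The exact test gave 41 higher, DESeq2 51, the fragment length class 1, fragment length in bases 22, and a threshold of 0.10 gave 38, all with 0 lower. With controls 1 and 2 left out it was 4 higher and 1 lower. With 1 library left out, 0 to 133 were higher and 0 to 2 lower, with every count above 0 from leaving out control 3. At an unadjusted p, 76 members higher became 43 with controls 1 and 2 left out (9.49% of all tested models) and 39 to 145 with 1 library left out, with 47 without heat 3 (7.35%), 39 without control 2 (8.24%) and 145 without control 3 (38.2%), and stayed within 1.5 times otherwise. The 1 member lower became 0 with DESeq2 size factors, library totals, DESeq2 and both fragment length covariates, 2 with controls 1 and 2 left out, and 0 to 2 with 1 library left out, where 8.63% to 23.6% of all tested models were lower in these fits. The replicate block gave 0 members past the adjusted threshold, with 0.0208% of all tested models higher and 0.0% lower, and 96 higher and 1 lower at an unadjusted p, with 15.6% and 14.0%. The replicate numbers were not taken as pairs, and not every library correlated best with its own number.

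The members' median log2 fold change was 0.73 to 1.86 with 1 library left out, the high value without control 3, and 0.56 to 1.18 under all other settings. DESeq2 size factors and library totals put the median of all tested models at 0.21 and 0.23, and the members' at 1.08 and 1.10. The difference in the share of reads, 0.921 percentage points, was 0.467 for the 100 longest, 1.55 for the 400 longest and 0.105 as a share of TPM, where long models weigh less and the ratio of mean shares was 2.69, against 2.13 for reads. It was 0.737 to 1.14 with 1 library left out. The number of members without overlap was 104 higher with library totals, beside 23.3% of all tested models, and 114 with TPM, beside 27.4%, and 0 lower in both, beside 13.1% and 8.63%.

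Signs turned for 4 named members, none of which passed the test in the main comparison. TR1395 was -0.019 with controls 1 and 2 left out. TR9939 was 0.043 with library totals and 0.028 with DESeq2, and -0.25 to 0.0079 with 1 library left out, above 0 without heat 1. TR35934 isoform 3 was 0.34 with limma-voom, 0.62 with controls 1 and 2 left out and -1.73 to 1.51 with 1 library left out, above 0 without control 2. Isoform 2 was 2.02 with limma-voom, 2.31 with the replicate block, 1.27 and 2.73 with fragment length class and bases, 8.93 with controls 1 and 2 left out and -2.26 to 8.69 with 1 library left out, above 0 without control 1, where in both cases the remaining control reads round to 0 and the value is no measure of size. The cause of these differences was not tested. Where 5 or fewer members were called, these were, named after their values were seen, TR22874 with fragment length class and TR60495 and TR30266 on the lower side without control 3. With controls 1 and 2 left out they were TR69014, TR51615, TR22874 and TR31362 higher and TR45314 lower. Depth limits the control levels, since 3 reads are 4.76 CPM in control 2.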
